A study of Rattus norvegicus with 24 samples.

Results

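In RNA of saline-injected rats, the amygdala was set against the other 5 dissected brain regions, over all genes the arrays measured. The members were the 4 saline channels of the amygdala arrays, of 24 saline channels in all. They were compared with the 20 saline channels of midbrain, ventral striatum, cerebral cortex, hippocampus and hypothalamus, 4 for each. All rats were male Wistar rats, 10 weeks old, of 1 outbred stock with no transgene named. Of 9 rats, 3 received saline. The others received MK-801, an open-channel blocker of the NMDA glutamate receptor, injected into the abdomen at 0.08 mg per kg (low dose) or 0.16 mg per kg (high dose), and brains were removed 40 min later. Each 2-colour array held saline RNA in 1 dye and MK-801 RNA of the same region in the other. In each region arrays 1 and 2 carried saline in Cy3 and in Cy5 against the high dose, and arrays 3 and 4 did so against the low dose. Channels are numbered in that order, and the mean of a Cy3 and a Cy5 saline channel was 1 value, so each region had 2 values balanced for dye. No label ties an array to an animal or states whether rats were pooled, so p-values measure the spread between these hybridizations, which may be technical. Each region had a slide of its own, so region and slide cannot be told apart. Amygdala and midbrain were scanned on the same day.

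The amygdala is a group of nuclei in the temporal lobe. Its basolateral and cortical nuclei hold mainly glutamate neurons like those of the cortex, and its central and intercalated nuclei hold mainly GABA neurons like those of the striatum. Its medial nucleus responds to odour and sex steroids and, with the bed nucleus of the stria terminalis, holds vasopressin neurons outside the hypothalamus. In rodents it lies beside the temporal horn of the lateral ventricle, whose choroid plexus makes cerebrospinal fluid, and its outer nuclei reach the ventral surface of the brain under the meninges. In dissected tissue, fewer cells of a type and less RNA per cell cannot be told apart.

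The share of probes well above background lay between 55.68% and 79.07% in the amygdala channels and between 59.03% and 89.31% in the others. Amygdala channel 1 was the lowest of all 24. The number of arrays limits the precision. Levels are log2 quantile-normalized processed signal, where a difference of 1 is a 2-fold difference. Levels of different genes come from different probes and are not set against each other.

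Vasopressin (Avp) had the largest amygdala excess of the neuropeptide genes on the lists, and the excess was larger in saline than in MK-801 RNA. Vasopressin and oxytocin genes arose by duplication, lie next to each other on chromosome 3 and share a conserved neurophysin region, so the probes are shown here to let a reader judge how far one could hybridize to the other transcript. All are 60 bases long, given 5′ to 3′ in the sense of the transcript, and positions are rn3 as in the scanner files. The brighter Avp probe is at chr3:118110655-118110714 on the minus strand. The dimmer Avp probe spans chr3:118110779-118111063 on the minus strand, 285 bases, so that its sequence is split in the genome. The Oxt probe spans chr3:118100336-118100479 on the plus strand, 144 bases. Capitals mark bases identical between the dimmer Avp probe and the Oxt probe in their best alignment without gaps.
Avp brighter probe: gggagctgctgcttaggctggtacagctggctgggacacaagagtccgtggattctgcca
Avp dimmer probe: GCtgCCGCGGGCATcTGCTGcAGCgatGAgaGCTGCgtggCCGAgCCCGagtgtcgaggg
Oxt probe: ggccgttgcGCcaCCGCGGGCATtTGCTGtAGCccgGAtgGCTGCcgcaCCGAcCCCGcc
In that alignment 35 of 51 bases were identical (68.6%). The brighter Avp probe, whose values are given below, shared 20 of 57 bases with the Oxt probe (35.1%) and has no capitals.

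In saline RNA the brighter Avp probe read 10.94, 10.55, 10.73 and 10.51 in the 4 amygdala channels. The other 20 channels ran from 6.97 to 8.62 with a median of 7.70. The groups did not overlap, and the amygdala also stood above the hypothalamus, which holds the magnocellular vasopressin neurons. The samples labelled hypothalamus were the highest region for Oxt (9.11) and for Pmch (12.76), another hypothalamic peptide gene. They were also highest for the thalamic genes Ntng1 (10.20), Rora (7.66) and Gbx2 (7.82), though not for Calb2. For Agrp, a hypothalamic peptide gene, they were the lowest region (5.82). How many magnocellular neurons they held was not measured. The amygdala exceeded the mean of the other regions by 2.93 (SE 0.093), or 7.62-fold (limma, adjusted p = 1.482e-06), and the hypothalamus by 2.13, or 4.37-fold. The dimmer probe averaged 7.61 ± 0.191 in the amygdala and 6.44 ± 0.147 in the hypothalamus (SD over 4 channels, which are 2 dye swaps).

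In the MK-801 RNA of the same arrays the Avp excess was mostly gone. Signal with MK-801 was below saline on every amygdala array, by 2.20 and 2.03 at the high dose and by 1.74 and 1.89 at the low dose on the log2 scale. That is a mean of -1.97 ± 0.197 (SD over 4 arrays, which are 2 dye swaps), or 3.91-fold more signal in saline than in MK-801 RNA. On the 20 arrays of the other regions the same difference ran from -0.285 to 0.228, so the amygdala arrays lay outside the range of all others. In a fit of these within-array differences, which was added after the data were seen, the amygdala differed from the other regions by -1.89 (SE 0.112; limma, adjusted p = 0.003388). The saline side of all 4 amygdala arrays came from the same set of 3 saline rats. The arrays therefore do not repeat the saline level independently, here or for Oxt below. Whether the saline amygdala RNA was itself unusual was not tested. The dimmer probe moved the same way, with 5.95-fold more signal in saline than in MK-801 amygdala RNA. In MK-801 RNA the amygdala contrast was 0.86 at the high dose and 1.22 at the low dose. The MK-801 amygdala averaged 8.72 ± 0.202 and the MK-801 hypothalamus 8.34 ± 0.075 (SD over 4 channels each).

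Oxytocin (Oxt), the peptide of the neighbouring gene, followed Avp within the amygdala but not across regions. Its 4 saline channels in the amygdala read 7.47, 7.07, 7.22 and 7.11, against 4.57 to 9.19 elsewhere with a median of 5.35. The ranges overlapped because the hypothalamus was 1.89 higher than the amygdala. Against the mean of the other regions Oxt was higher by 1.24 (SE 0.137; limma, adjusted p = 0.0002662). MK-801 minus saline on the 4 amygdala arrays averaged -2.03 ± 0.07 (SD over 4 arrays, which are 2 dye swaps), or 4.08-fold more signal in saline RNA. Elsewhere that difference ran from -0.652 to 1.21. The amygdala difference of -2.06 from the other regions missed the threshold (limma, adjusted p = 0.1165), and passed it when the 24 arrays were fitted singly (adjusted p = 0.0002092) or after normexp background correction (adjusted p = 0.01479). In MK-801 RNA the Oxt contrast was -1.005 at the high and -0.64 at the low dose, below the mean of the other regions. The saline contrast was also under 2-fold (0.52) after normexp and was -0.13 over 3 sets of rats.

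**Figure D1:**
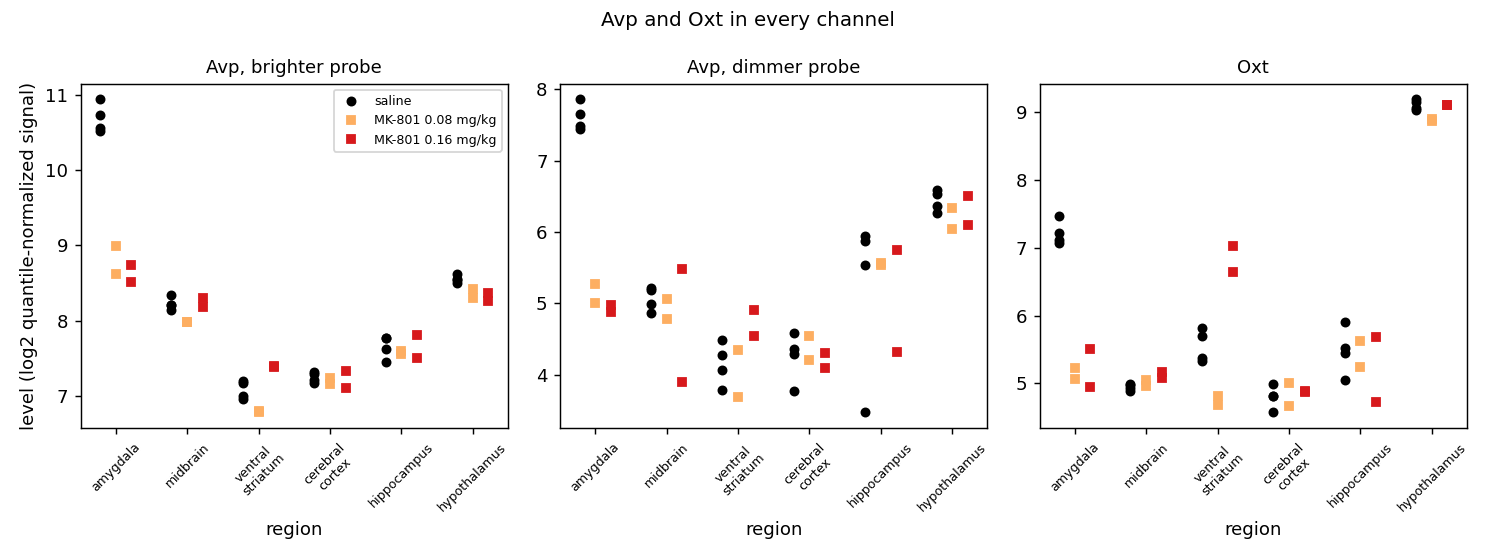
Log2 signal of both Avp probes and the Oxt probe in every channel (points), by brain region; black is saline, orange 0.08 and red 0.16 mg per kg MK-801, with all 48 channels normalized together. The 4 black amygdala points stand above the coloured ones in each panel. In the other regions all differences within an array lay between -0.285 and 0.228 for the brighter Avp probe, while Oxt in the ventral striatum spread more, with high-dose points above and low-dose points below the saline points.

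Of the 24570 genes tested for this difference between MK-801 and saline, 2 were called (0.00814%) and 3801 had an unadjusted p under 0.05. The other was Ostn (osteocrin, a secreted peptide), higher by 1.68 (SE 0.163; limma, adjusted p = 0.03189). The difference rests on signal near background on both sides. Saline amygdala signal was not well above background in any of the 4 channels, and MK-801 amygdala signal was so in 1 of 4. The call was lost after normexp background correction, where the difference was 0.34. It was also lost under 75th percentile scaling and without amygdala replicate 1, 2 or 3.

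No other tested gene of vasopressin and oxytocin neurons was called against the mean of the other regions. Of 8 tested genes of magnocellular neuroendocrine neurons, 2 were called higher, Avp and Oxt, and none lower. The contrast was -0.97 for Pdyn (prodynorphin, stored with vasopressin), 0.31 for Gal (galanin) and -0.54 for the transcription factor Pou3f2, none called. For Pdyn that mean included 15.27 in the ventral striatum. Amygdala and hypothalamus read 10.97 and 9.855 for Pdyn, 9.67 and 9.76 for Gal, and 8.58 and 8.29 for Pou3f2. The list median was 0.03, against -0.04 over all genes. Among 14 other hypothalamic genes none was called higher and 2 were lower: Pmch (melanin-concentrating hormone) by -1.27 and Rax, a hypothalamic transcription factor, by -1.22. Both lost the call over 3 sets of rats (-0.92 and -0.99). Rax signal was near background. It was well above background in 1 amygdala channel and 1 hypothalamus channel, and in all 4 channels of the cortex alone. The Rax contrast was -0.15 after normexp and -0.79 under 75th percentile scaling. Among 4 pituitary hormone genes tested none was called, with a median of -0.40. The part of any tissue carried over from neighbouring regions in the Avp result was not tested.

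Over all genes, 1123 of 24825 were called higher in the amygdala than in the mean of the other regions (4.52%) and 871 lower (3.51%). A call needed an adjusted p under 0.05 and a difference of at least 2-fold. A stricter group, called set apart here, differed from each of the 5 regions in 1 direction by at least 1.5-fold with an adjusted p under 0.05 each time. It held 342 genes high (1.38%) and 157 low (0.632%) in the amygdala. These calls rest on the small spread between hybridizations. With 1 value per region, so that the spread is that among the other 5 regions, no gene was called by limma and 805 had an unadjusted p under 0.05. The amygdala profile was nearest to cerebral cortex and ventral striatum and farthest from hypothalamus. Genes were counted that differed from a single region at least 2-fold in either direction with an adjusted p under 0.05. They numbered 2271 against ventral striatum (9.15%), 2491 against cortex (10.0%), 3520 against midbrain (14.2%), 3806 against hippocampus (15.3%) and 5295 against hypothalamus (21.3%). Across genes, Pearson's r of the region means ran from 0.944 with hypothalamus to 0.972 with cortex; genes are not independent replicates.

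The set-apart genes were looked up in the MK-801 RNA, from rats whose RNA the saline contrast did not use. In high-dose RNA the amygdala was the highest region for 336 of 337 set-apart high genes (99.7%), against 14% of all tested genes, and by at least 1.5-fold for 265 (78.6%, against 2.36%). At the low dose it was highest for 334 of 335. For set-apart low genes the amygdala was the lowest region for 153 of 156 at the high dose (98.1%, against 17.6% of all) and for 151 of 155 at the low dose. Avp was highest in the amygdala at both doses. MK-801 and saline RNA shared slides, so a slide effect would repeat too and cannot be told apart from region here. In a fit over 3 sets of rats (saline, low and high dose) with set as a block, 1184 genes were higher (4.76%) and 922 lower (3.71%). They included 1042 of the 1123 and 749 of the 871 above.

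The 20 named genes high in the amygdala were, listed by measured signal difference to the nearest other region, Kcnj13, Defb1, Adipoq, Dio3, Avp, Ccdc33, Ros1, Esm1, Ccl19, Kcne2, Cltrn, Cxadr, Tgap1l7, Sostdc1, Ttr, Slc22a6, Slc15a1, Fmod, Colec12 and Trhr. For 18 of the 20 no amygdala channel overlapped a channel of another region, which their choice largely fixes; Tgap1l7 and Slc15a1 overlapped. All 20 were also called over 3 sets of rats, a fit that includes the saline values that chose them. In 7 of the 20, at least 1 other region was not well above background on any array. For these 7 (Defb1, Adipoq, Ros1, Esm1, Kcne2, Cltrn and Tgap1l7) the level in that region is only a bound, and their place in the list is no order.

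**Figure D2:**
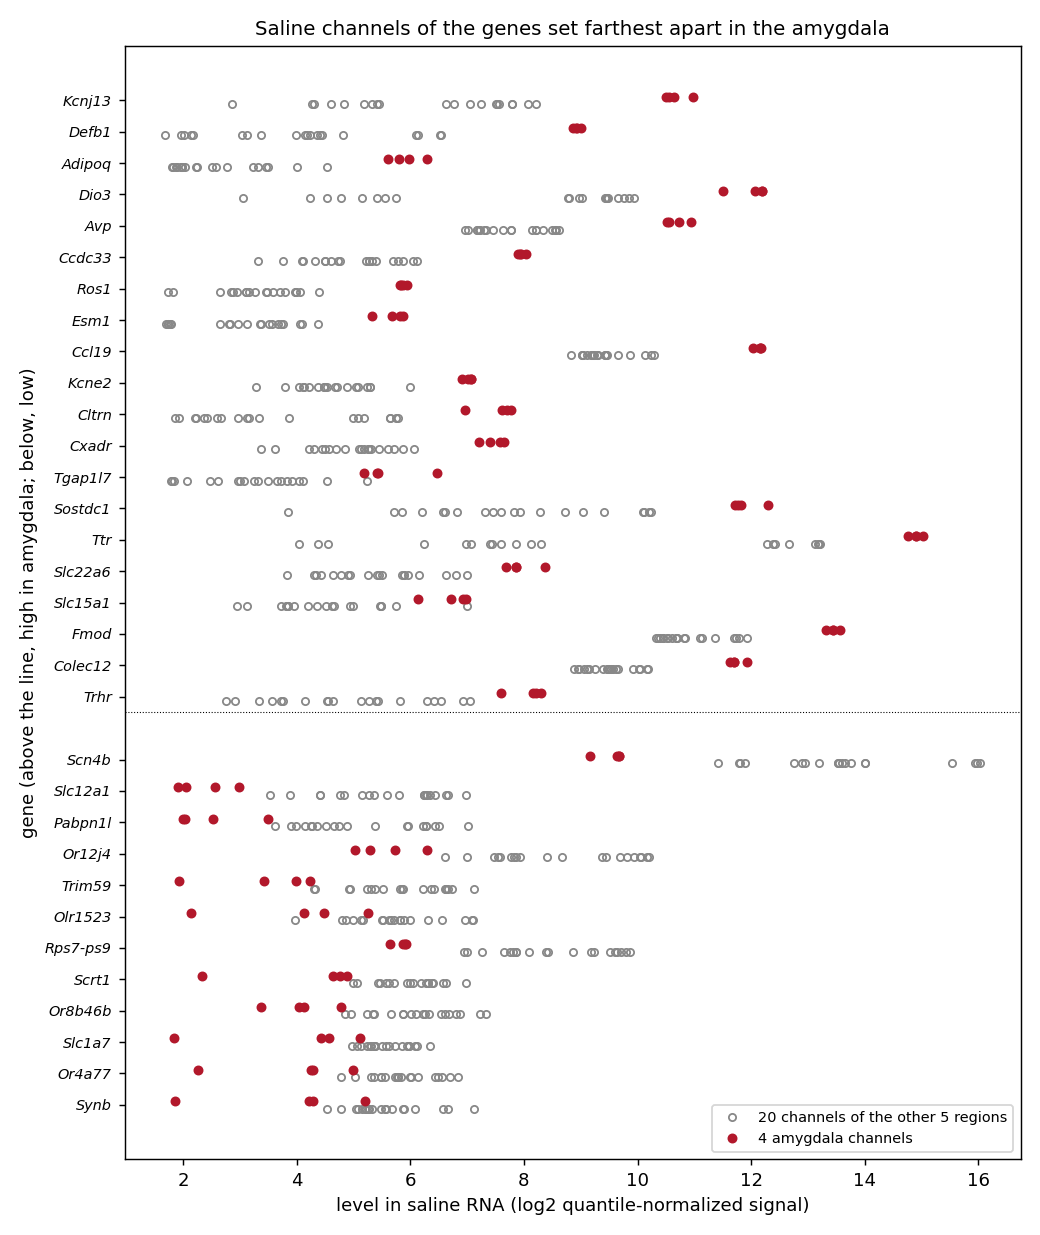
Log2 quantile-normalized signal in all 24 saline channels for the 20 high genes (above the dotted line) and the 12 low genes (below it); filled red points are the 4 amygdala channels and open grey points the 20 others. Avp at 10.51 to 10.94 stands clear of its grey points, while several of the low genes have red points spread toward the bottom of the scale.

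Genes of the choroid plexus, the epithelium in the ventricles that secretes cerebrospinal fluid, had the highest median of the lists. All 11 tested members were called higher and none lower, 8 of them set apart, with a median of 2.29 against -0.04 over all genes. Ttr (transthyretin, which carries thyroid hormone into the fluid) read 14.91, 15.03, 14.77 and 14.90 in the amygdala and 4.04 to 13.22 elsewhere, with a median of 7.99. The amygdala was above every other channel, by 1.72 over the hypothalamus, the nearest region. The contrast was 5.78 (SE 0.236; limma, adjusted p = 3.105e-06). Kcnj13, an inward rectifier potassium channel of this epithelium, read 10.98, 10.50, 10.65 and 10.55 against 2.86 to 8.21 elsewhere. It was 2.99 above the cerebral cortex, the nearest region, without overlap, and its contrast was 4.45 (SE 0.241; limma, adjusted p = 6.923e-06). Sostdc1, a secreted antagonist of BMP and Wnt signals, was higher by 4.11, Clic6 by 2.29, Aqp1 (the water channel) by 1.61 and Folr1 (the folate receptor) by 1.61. The other 5 were called against a mean that included regions not well above background, where only bounds hold. Kcne2, a potassium channel subunit, was at least 4.93-fold above the hippocampus. F5 (coagulation factor V) was at least 8.34-fold above the midbrain, and its other probe was at background. Slc4a5 (a bicarbonate transporter) was at least 2.07-fold above the midbrain and 1.83-fold above the hippocampus, and it lost its call under 75th percentile scaling (limma, adjusted p = 0.05604) and with no filter (adjusted p = 0.05552). Prlr (the prolactin receptor) was at least 1.93-fold above the ventral striatum and at least 1.09-fold above the hippocampus, the highest and the lowest of its 4 bounds. Otx2, a transcription factor of this epithelium that the midbrain also expresses, was at least 76.1-fold above the cortex but 1.96 below the midbrain. Without the cortex the Otx2 contrast fell to 0.11 and its call was lost. Another Otx2 probe gave 0.55, with the hypothalamus highest. Kl was not tested.

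The mean level of that list was set side by side over the sets of rats. Over the 10 members measured on all arrays, the mean level in saline amygdala was 8.48 to 8.60. In amygdala RNA of the high dose it was 9.75 to 9.77, and at the low dose 8.70 to 8.86. The high-dose amygdala thus lay above the saline amygdala on both of its arrays. In the hippocampus both doses lay below the 6.13 to 6.49 of saline. They read 4.68 to 4.96 at the high dose and 4.79 to 4.88 at the low dose. The hypothalamus was lower at the high dose (5.87 to 5.94) than in saline (6.93 to 7.26), but not at the low dose (7.18 to 7.41). For Ttr, MK-801 minus saline in the amygdala was 1.39 and 1.32 on the high-dose arrays and 0.27 and 0.13 on the low-dose arrays. The amygdala differed from the other regions in that difference by 1.55 (SE 0.585; limma, adjusted p = 0.2687), which was not called. The amount of choroid plexus in each piece of tissue was not measured, and its part in the other high genes was not tested.

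The remaining named high genes were on no list. Cltrn (collectrin, a partner of amino acid transporters) was at least 9.77-fold over the midbrain and 13.2-fold over the ventral striatum, both not well above background. Defb1 (a beta-defensin of epithelia) read 8.942, 8.872, 9.003 and 8.925 against 1.68 to 6.53 elsewhere, without overlap. It was at least 26.2-fold higher than in midbrain, 20.9-fold than in hippocampus and 28.9-fold than in hypothalamus, where it was not well above background. Slc15a1 (a peptide transporter) was higher by 2.17 and Cxadr (a tight-junction receptor for coxsackievirus) by 2.53. Esm1, a proteoglycan of endothelial cells, was at least 3.89-fold above the ventral striatum and 2.20-fold above the hippocampus. Adipoq (adiponectin, a hormone of fat cells) was not well above background in any other region, and its amygdala level of 5.61 to 6.28 gave bounds of at least 2.54-fold over hippocampus to at least 7.42-fold over cortex. Ros1, a receptor tyrosine kinase, was at least 3.11-fold above the midbrain, 2.34-fold above the hippocampus and 3.43-fold above the hypothalamus, all not well above background. Ccdc33 was higher by 3.02, and its other probe was at background.

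Genes of the meninges and fibroblasts were the second group. Of 10 tested, 8 were called higher and none lower, 6 of them set apart, with a median of 1.67. Col1a2, a chain of type I collagen, read 13.76, 13.88, 13.87 and 13.89 against 10.77 to 12.94 elsewhere and was higher by 2.11 (SE 0.104; limma, adjusted p = 4.613e-06). Its channels did not overlap those of other regions. Ogn (osteoglycin) was higher by 1.93, Col1a1 by 1.82 (its other probes, both well above background in the amygdala, gave 0.28 and 1.12), Col3a1 by 1.78, Igf2 (insulin-like growth factor) by 1.76, Slc6a13 (a GABA transporter of the meninges) by 1.57, Dcn (decorin) by 1.15 and Lum (lumican) by 1.02. Mgp (0.21) and Islr (0.55) were not called. Of the named genes on no list, Slc22a6, an organic anion transporter, was higher by 2.55, Fmod (fibromodulin, which binds collagen) by 2.53, Colec12 (a scavenger receptor) by 2.24 and Ccl19, a chemokine, by 2.71. Whether these genes came from the meninges was not tested. Ccl19 read 12.15, 12.18, 12.03 and 12.16 against 8.82 to 10.29, without overlap. The mean level of the meningeal list, over 7 members, overlapped between saline (11.03 to 11.26) and high-dose amygdala (11.08 to 11.31).

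Of the vascular and blood lists, none of 8 tested endothelial genes was called (median 0.15), nor of 3 red blood cell genes (median -0.16). None of 11 microglial genes was called, although 9 had their highest region mean in the amygdala (median 0.48). Of 10 astrocyte genes 1 was called, Sox9, by 1.41, while its other probes gave 0.05 to 0.79. The astrocyte median was 0.46.

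**Figure D3:**
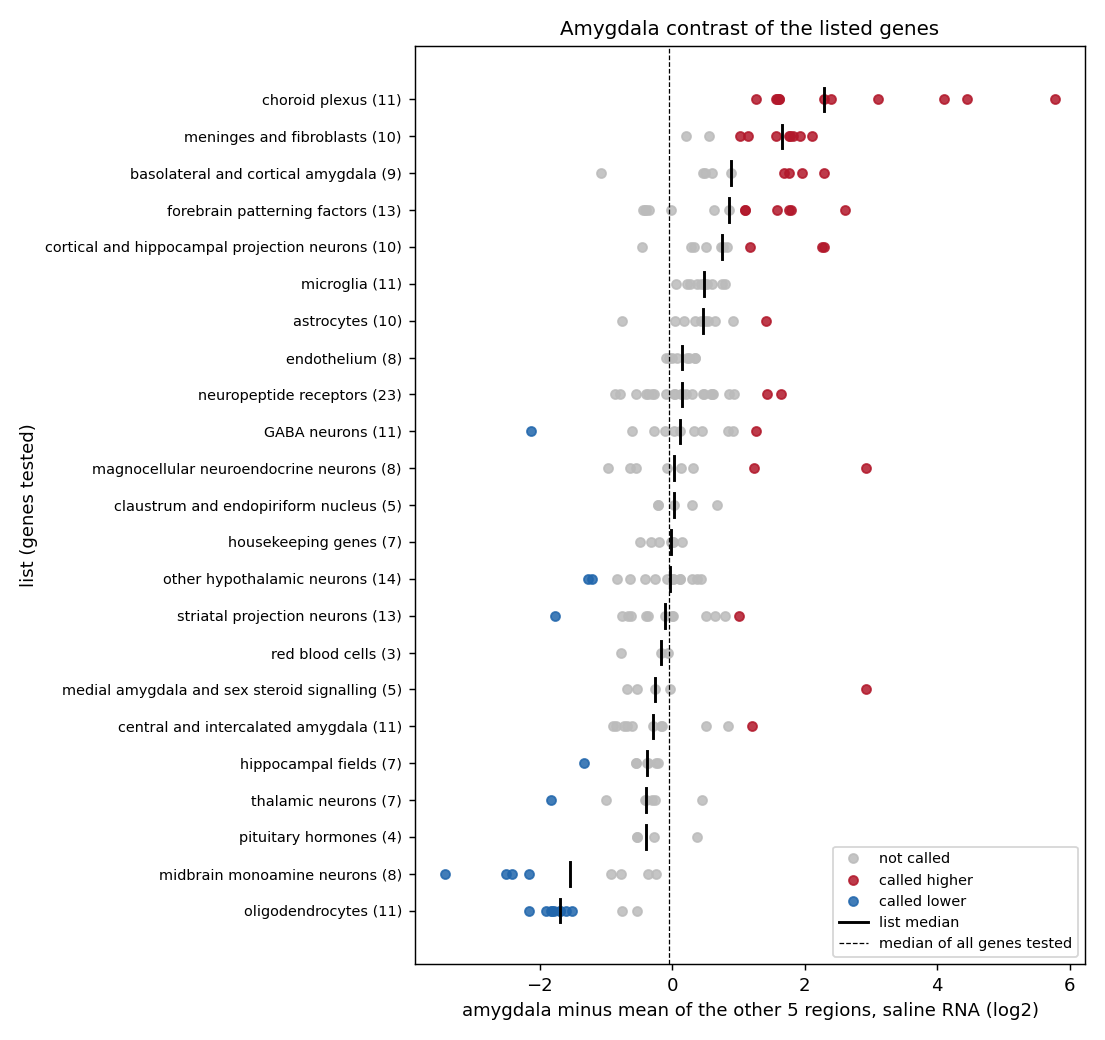
Amygdala minus the mean of the other regions (log2) for each tested member of the gene lists; red points were called higher, blue lower and grey not called, the black tick is the list median and the dashed line the median of all genes. The choroid plexus (median 2.29) and meningeal (1.67) lists lie to the right and the oligodendrocyte list (-1.70) to the left.

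The labelled tissue was then checked against genes of amygdala nuclei. Of 9 tested genes of the basolateral and cortical nuclei, 4 were called higher and none lower, with a median of 0.89. Nr2f2 (COUP-TFII, a nuclear receptor of caudal forebrain neurons) read 11.63, 11.98, 12.17 and 11.95 in the amygdala and 8.13 to 11.21 elsewhere, with a median of 9.83. It did not overlap, was higher by 2.29 (SE 0.169; limma, adjusted p = 3.316e-05) and was the only set-apart gene of the list. Cyp26b1 (which degrades retinoic acid) was higher by 1.96, within 0.21 of the cortex. Rspo2, an enhancer of Wnt signals, was 2.27 below the hippocampus and at least 10.8-fold above the midbrain and 11.9-fold above the hypothalamus, both not well above background. Lhx2, a LIM homeobox factor, was higher by 1.76 but level with the hippocampus (12.77 against 12.80). Lhx2 rests on 3 amygdala channels and 1 dye swap, since channel 1 was an outlying spot. Etv1 (0.49), Grp (0.60), Tfap2d (0.89), Lypd1 (0.47) and Lhx9 (-1.08) were not called.

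Genes of the central and intercalated nuclei did not stand above the other regions as a list. Of 11 tested, 1 was called higher and none lower, against 4.52% and 3.51% of all genes, with a median of -0.29. It was Wfs1 (wolframin, of the endoplasmic reticulum), higher by 1.21. Its 10.57 in the amygdala was below 11.32 in the hippocampus, and its contrast fell to 0.59 without the midbrain. The contrast was 0.84 for Sst (somatostatin), -0.84 for Prkcd (protein kinase C delta), -0.16 for Crh (corticotropin-releasing hormone) and -0.68 for Foxp2, none called; another Foxp2 probe gave -2.05. All 4 amygdala channels of Prkcd lay between 11.249 and 11.497, inside the range of 9.98 to 15.74 of the other regions. By region Prkcd averaged 15.69 in hypothalamus, 12.47 in midbrain, 12.065 in ventral striatum, 10.59 in cortex and 10.04 in hippocampus. The amygdala average of 11.33 was thus above cortex and hippocampus and below the others. Of 5 tested genes of the medial nucleus and sex steroid signalling, 1 was called, Avp, with a list median of -0.26. Pgr (the progesterone receptor) was at -0.26 and not called, with another probe at 0.37. Esr1, Cyp19a1, Lhx6, Otp, Ucn3 and Greb1 of this list were not tested, so it covers only part of its 11 members. Of these 3 lists, Nr2f2 and Avp were set apart high.

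Genes of the forebrain in general were higher than the mean of the other regions, which includes midbrain and hypothalamus, or not called. The mean saline level of 10 patterning factors was 8.475 to 8.73 in the amygdala and 8.96 to 9.34 in ventral striatum. It was 8.61 to 8.80 in cortex, 8.43 to 8.53 in hippocampus, 7.34 to 7.49 in hypothalamus and 6.06 to 6.26 in midbrain. No patterning factor was set apart. Of 13 tested forebrain patterning factors, 6 were called higher and none lower, with a median of 0.86. Emx2, a homeobox factor of the dorsal forebrain, was higher by 1.11, but its 11.85 in the amygdala was below 12.42 in the hippocampus. Another Emx2 probe gave 0.09. Dlx5, a homeobox factor of GABA neurons, was called on a contrast that rests on the midbrain, where it was not well above background. Without the midbrain Dlx5 turned to -0.18. Of 10 genes of cortical and hippocampal projection neurons, 3 were called higher and none lower (median 0.75). Neurod2 (a neuronal differentiation factor) was higher by 2.27 and Slc17a7 (the vesicular glutamate transporter VGLUT1) by 1.18. Fezf2, a factor of deep-layer neurons, was at least 33.2-fold above the midbrain and 35.9-fold above the hypothalamus, both not well above background, and its contrast fell under 2-fold after normexp (0.97). All 3 were lower in the amygdala than in the hippocampus, by 1.52 for Fezf2, 1.46 for Neurod2 and 1.73 for Slc17a7. None of 5 claustrum genes was called (median 0.03), nor of 7 housekeeping genes (median -0.02).

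**Figure D4:**
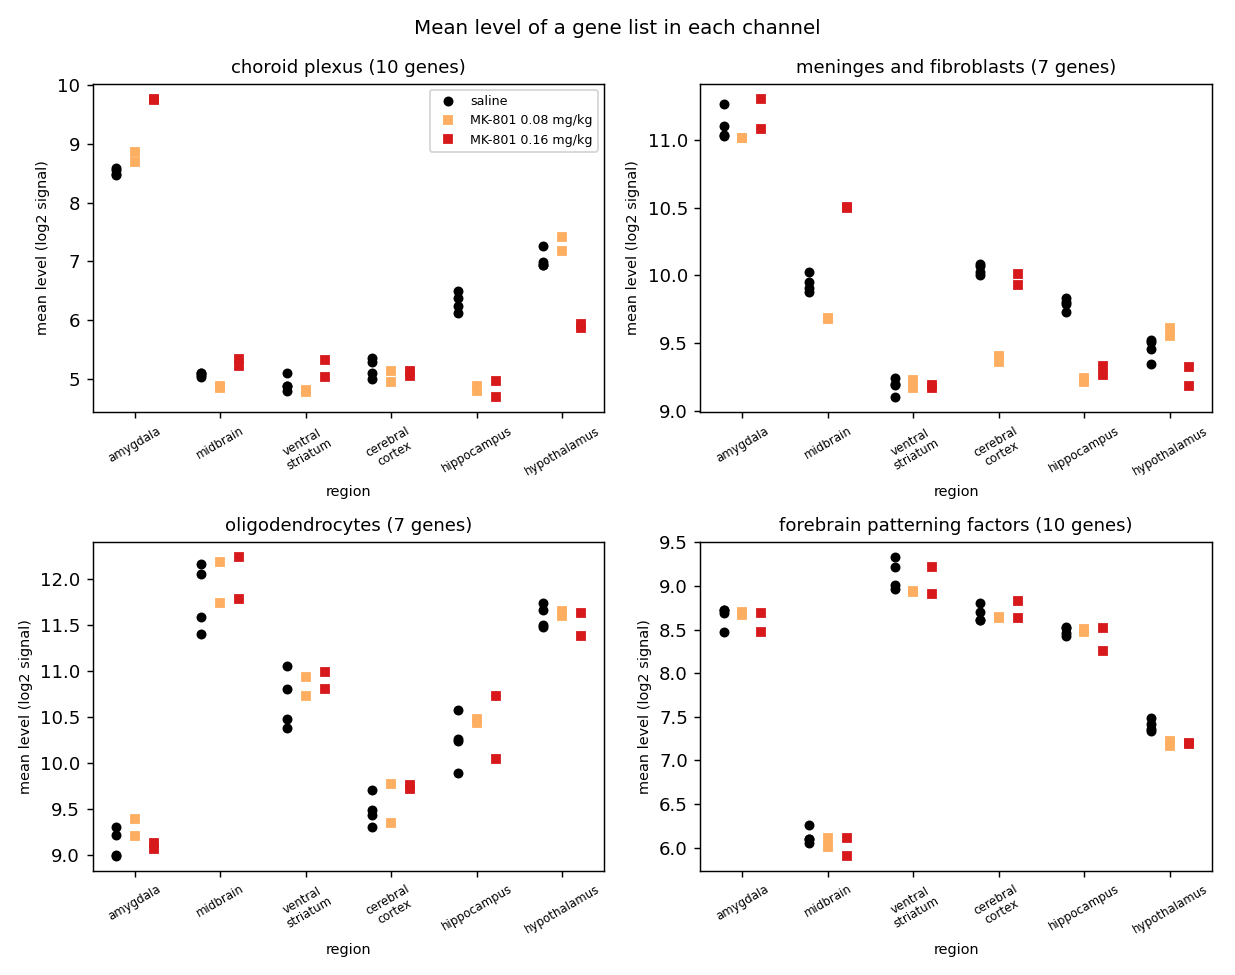
Mean log2 level of 4 gene lists in every channel by region, over the members measured on all arrays (choroid plexus 10 genes, meninges 7, oligodendrocytes 7, forebrain factors 10); black is saline, orange 0.08 and red 0.16 mg per kg MK-801. The choroid plexus mean is highest in the amygdala in every set of rats, and the oligodendrocyte mean of the saline amygdala, 8.998 to 9.305, lies below that of the saline cortex, 9.31 to 9.71.

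Peptides and their receptors gave single genes. Trhr, the receptor of thyrotropin-releasing hormone, read 7.60, 8.21, 8.17 and 8.30 in the amygdala against 2.74 to 7.05 elsewhere, with a median of 4.88. It did not overlap and was higher by 3.16 (SE 0.333; limma, adjusted p = 0.0002074), with the midbrain nearest at 1.62. Dio3, the deiodinase that inactivates thyroid hormone, read 11.51, 12.20, 12.07 and 12.19 against 3.05 to 9.94, without overlap, and was higher by 4.44 (SE 0.237; limma, adjusted p = 6.497e-06). Its nearest region was the cortex at 2.44, and another Dio3 probe gave 1.28. Both genes were called in the fit over 3 sets of rats, at 3.28 for Trhr and 4.495 for Dio3. Of 23 tested neuropeptide receptors, 2 were called higher and none lower (median 0.15), against 4.52% higher and 3.51% lower over all genes. Sstr1, a somatostatin receptor, was higher by 1.44 against the mean, with 11.64 in the amygdala and 11.92 in the cortex. Calcr, the calcitonin receptor, was 1.58 below the midbrain and at least 8.06-fold above the hippocampus, where it was not well above background; its other probe was at background. Avpr1a, a vasopressin receptor, was at -0.39 and not called.

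Of 11 tested GABA neuron genes, 1 was called higher and 1 lower, with a median of 0.12, against 4.52% and 3.51% of all genes. Vip (vasoactive intestinal peptide) was higher by 1.27 against the mean, but its 13.18 in the amygdala was below 13.81 in the cortex and 13.62 in the hypothalamus. Pvalb (parvalbumin, of fast-spiking interneurons) was lower by -2.13. Pvalb read 10.18, 10.38, 10.40 and 10.36 in the amygdala and 10.92 to 13.73 elsewhere, with a median of 12.78. It was lowest in the amygdala without overlap, 1.86-fold below the ventral striatum, the nearest region (limma, adjusted p against the mean of the others = 3.478e-05). Gad1 (-0.27), Gad2 (-0.12) and Slc32a1 (-0.61), which make and load GABA, were not called.

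Of the 12 named low genes, the one farthest below every other region was Scn4b, the beta-4 subunit of voltage-gated sodium channels. It read 9.16, 9.67, 9.67 and 9.64 in the amygdala and 11.42 to 16.03 elsewhere, with a median of 13.55. The groups did not overlap, and the amygdala lay 4.56-fold below the hippocampus, the nearest region. The contrast was -4.05 (SE 0.116; limma, adjusted p = 1.015e-06), and in MK-801 RNA it was -3.95 at the high and -3.64 at the low dose.

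Scn4b was the only one of the 12 named low genes that was well above background in all 4 amygdala channels. Or12j4, an odorant receptor gene, and Rps7-ps9, a ribosomal pseudogene, passed in 3 channels and were lower by -3.09 and -2.69. Both lay below every channel of the other regions. A pseudogene probe can share signal with its parent gene. Slc12a1 (a sodium-potassium-chloride cotransporter) and Pabpn1l (a poly(A)-binding protein) were not well above background on any amygdala array, so only bounds hold. Slc12a1 was at least 4.82-fold higher in hypothalamus and 3.45-fold in midbrain than in the amygdala, and Pabpn1l at least 4.11-fold in hypothalamus and 3.37-fold in hippocampus. The other 7 (Trim59, Olr1523, Scrt1, Or8b46b, Slc1a7, Or4a77 and Synb) passed in 1 or 2 amygdala channels, with contrasts from -2.46 for Trim59 to -1.60 for Slc1a7. In 6 of them, Or8b46b being the exception, the lowest value, 1.84 to 2.32, was that of channel 1. Without channel 1, Olr1523 (-1.16, adjusted p = 0.06517) and Slc1a7 (-0.91) lost their calls. After normexp background correction Scn4b (-4.03), Or12j4 (-2.07) and Rps7-ps9 (-2.04) kept theirs and the other 9 fell under 2-fold.

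Oligodendrocyte genes, which make and maintain myelin, formed the low group. Of 11 tested, 9 were called lower and none higher, 4 of them set apart, with a median of -1.70. Mag (myelin-associated glycoprotein) read 10.50, 10.20, 10.52 and 10.19 in the amygdala and 10.97 to 13.92 elsewhere, with a median of 12.57. It was lower by -2.16 (SE 0.107; limma, adjusted p = 4.613e-06) and did not overlap, with the cortex nearest at 1.98-fold. Cldn11 (a claudin of myelin) was lower by -1.91, Gjb1 (a gap-junction connexin) by -1.84, Ermn by -1.81, Mbp (myelin basic protein) by -1.79, Mog by -1.70, Ugt8 (which makes galactolipids of myelin) by -1.69, Opalin by -1.60 and Cnp by -1.51. Another Ugt8 probe failed the filter on dim signal. Aspa (-0.53) was not called, and Mobp was not tested. The list median was -1.85 in high-dose and -1.62 in low-dose RNA.

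Genes of midbrain, striatum, hippocampus and thalamus gave the remaining low calls. Of 8 tested genes of midbrain monoamine neurons, 4 were lower and none higher (median -1.54): Slc6a3 (the dopamine transporter), not well above background in the amygdala and at least 549.8-fold higher in midbrain, Slc18a2 (the vesicular monoamine transporter) by -2.51, Th (tyrosine hydroxylase) by -2.41 and Tph2 (tryptophan hydroxylase) by -2.16. Of 13 striatal genes, Drd2 (the D2 dopamine receptor) was lower by -1.77 and set apart, at 5.31 to 5.61 against 5.75 to 10.01. Penk (proenkephalin) was higher by 1.00, at the threshold, with another probe at -0.31, and the median was -0.10. Of 7 hippocampal genes Bok was lower by -1.33 (median -0.37). Of 7 thalamic genes Plekhg1, not well above background in the amygdala, was at least 9.81-fold higher in the hypothalamus (median -0.39). These contrasts are against a mean that includes the region where each gene is most abundant, and of the genes named in this paragraph Drd2 alone was set apart.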

How the data were processed

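Per the file headers, the deposited files held spot intensity in 2 colours from Agilent Feature Extraction 9.5.3.1, as processed signal after the software's background subtraction and dye normalization. The authors' further steps are not given in the sources used here. The processed intensity of the saline colour was taken as log2, without control and outlying spots, and the 24 saline channels were quantile-normalized. Spots of a probe were averaged. Probes well above background in all 4 saline channels of a region were kept (29466), and a gene was shown by its brightest probe, giving 24947 genes. Symbols came from the files, updated through RefSeq gene tables. limma 3.58.1 in R 4.3.3 was fitted on 12 dye-swap values, with Benjamini-Hochberg adjustment over all genes, and tested on simulated data. Fits that left out an amygdala channel used single channels with dye as a covariate. MK-801 values come from 48 channels normalized together. Named genes were Avp, list members, and the 20 high and 12 low set-apart symbols with the largest difference to the nearest region. A bound sets the brighter mean against the higher, per array, of the dim probe's signal and the lowest signal well above background. Members and lists were chosen with earlier results of these data known. Alternatives covered scaling, background, filter, unit, left-out channels and regions. Electrophysiology is not analysed here. A few genes counted in the lists are not reported here by name.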

Additional observations from a re-analysis of the deposited data

Results flagged for a closer look

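Among the 84 genes named or called on a list, 12 had 1 amygdala saline channel far from the other 3, where chance alone marks about 1 in 20 groups. In 11 of the 12 it was channel 1, the channel with the smallest share of probes well above background (55.68%). Channel 1 was low for Scn4b (9.163, others from 9.645), Scrt1 (2.322, others from 4.634), Penk (13.17, others from 13.502), Slc17a7 (7.325, others from 7.459), Fezf2 (8.624, others from 9.457) and Col1a2 (13.762, others from 13.872). It was high for Wfs1 (10.998, others up to 10.466), Neurod2 (11.667, others up to 11.154), Lum (8.327, others up to 7.965), Col3a1 (11.892, others up to 11.527) and Ogn (12.169, others up to 11.935). The remaining case was Ugt8 in channel 2 (6.4, others up to 6.284). Without channel 1, Lum fell under 2-fold (0.92).

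The amygdala excess of Avp differed between MK-801 and saline RNA by -1.888 (limma, adjusted p = 0.003388), with MK-801 below saline on all 4 amygdala arrays. These arrays shared the 3 saline rats on their saline side.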

How the results depend on the processing

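Against 1123 genes higher and 871 lower, normexp background correction gave 481 and 243, 1 value per region gave 0 and 0, and the midbrain alone, from the same scan day, gave 1785 and 1593. Against 342 set-apart high and 157 low genes, normexp gave 226 and 53. Leaving the ventral striatum out of the other regions gave 562 and 314, and low counts became 238 without midbrain, 318 without cortex and 250 without hippocampus, since fewer regions had to differ. Leaving out 1 amygdala channel, in fits of single channels with dye as a covariate, gave 1115 to 1155 genes higher and 659 to 1046 lower. The set-apart counts were then 320 to 352 high and 123 to 210 low. With the swap as a replicate block the counts were 1120, 871, 336 and 154. With the array number as a block, on single channels, they were 1134, 887, 366 and 161. The block changed no count by over 1.5 times. Same-numbered arrays did not deviate together (60 pairs, r from -0.241 to 0.29, 7 over 0.1), so the numbers were not taken to pair samples. The counts over 3 sets of rats stayed within 1.5 times in every alternative run, from 1139 to 1231 higher and 844 to 1101 lower.

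Of 1754 combinations of 84 named genes and settings, 1593 kept direction and call, 157 kept direction only and 4 turned: Oxt over 3 sets of rats (-0.134), Dlx5 without midbrain (-0.178), and Otx2 (-1.96) and Calcr (-1.578) against midbrain alone. The cause was not tested. Avp kept its call in 20 of 21 settings (1.67 to 3.13), losing it with 1 value per region. Its MK-801 minus saline difference ran from -1.73 to -1.96 in 7 alternatives and kept its call in each. Of these, the fit of 24 single arrays and the fits leaving out an amygdala array counted the arrays of a dye swap singly. Their p-values measure the spread between arrays, not between dye swaps. After normexp with an offset of 50, 27 of the 84 genes fell under 2-fold, 9 of them the low genes named above. The others were Oxt, Adipoq, Ros1, Esm1, Tgap1l7, Slc15a1, Slc4a5, Prlr, Rspo2, Fezf2, Slc17a7, Dlx5, Otx2, Calcr, Lum, Bok, Plekhg1 and Rax (from 0.98 for Adipoq to 0.335 for Slc17a7 among high genes). Without midbrain 9 genes fell under 2-fold, among them Emx2, Slc17a7, Rspo2, Wfs1, Vip, Penk and Oxt. Under 75th percentile scaling the median over all genes was -0.07, against -0.04. Signal near background limits the low genes most.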
